A study of Mus musculus with 8 samples.

Results

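The cells described here were picked as conventional dendritic cells of mouse bone marrow, from 4 single-cell RNA libraries by a fixed rule. A cell was kept when it held at least 5 UMIs (unique molecular identifiers, each standing for 1 captured transcript) of the class II genes H2-Aa, H2-Ab1 and H2-Eb1 in sum, at least 1 UMI of Xcr1, Clec9a, Cd209a, Itgax or Zbtb46, and none of Cd79a, Siglech, C1qa or Il7r. The rule found 337 cells among 22078 that passed the quality thresholds, namely 500 genes, 1000 UMIs and a mitochondrial share below 10%. Because measured values chose the cells, the levels of the rule genes are given as a description and support nothing.

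The study asked what Gli1, a hedgehog pathway transcription factor, does in blood-forming cells during the marrow fibrosis driven by JAK2V617F, an activated form of the kinase JAK2. Marrow cells of 8-week-old donors, either Gli1-/- (Gli1 KO) or wild type (WT), carried a retrovirus with JAK2V617F or the control JAK2WT and were given to female B6.SJL recipients aged 8 to 10 weeks after irradiation with 10.5 Gy. Marrow was taken 112 days after transplantation. The 4 libraries were Gli1 KO JAK2V617F, Gli1 KO JAK2WT, WT JAK2V617F and WT JAK2WT, each a pool of 3 mice, so every group was 1 sample and differences between groups have no replicate check. Before sequencing antibodies to B220, CD3, CD11b, GR1 and TER119 had been used to deplete lineage cells, and the rest was sorted for viability, lineage negativity and into GFP-positive and GFP-negative fractions. CD11b marks many dendritic cells of the Cd209a-bearing kind, and the shares below are shares of what passed this depletion and sort.

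Conventional dendritic cells take up antigen, cut it into peptides and show these to T cells on MHC class II molecules. The textbook division is into type 1 cells (cDC1), which carry XCR1 and CLEC9A, depend on IRF8 and BATF3 and are specialised in presenting antigen of dead cells to CD8 T cells, and type 2 cells (cDC2), which carry SIRPA and, in many tissues, CD209A and depend more on IRF4 and KLF4. On maturing, either type raises CCR7, which guides it to lymph nodes. In the marrow both arise from progenitors that express FLT3.

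H2-Aa and H2-Eb1 encode the alpha chain of I-A and the beta chain of I-E, the class II molecules themselves, and H2-DMb1 a chain of the chaperone that loads them with peptide. Their promoters are shown because these genes define and lead the selected cells. The sequences run from 250 bases before to 50 bases after the RefSeq start site, on the gene's strand (GRCm38.p6), with capitals marking GATTGG, the core of the Y box, or its reverse CCAATC.
H2-Aa promoter, chr17:34287774-34288073, minus strand: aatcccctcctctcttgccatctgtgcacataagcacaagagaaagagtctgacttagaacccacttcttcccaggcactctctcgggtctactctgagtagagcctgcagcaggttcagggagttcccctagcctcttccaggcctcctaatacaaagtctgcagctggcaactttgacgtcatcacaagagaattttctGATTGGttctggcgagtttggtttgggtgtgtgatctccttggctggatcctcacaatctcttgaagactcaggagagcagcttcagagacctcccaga
H2-Eb1 promoter, chr17:34305617-34305916, plus strand: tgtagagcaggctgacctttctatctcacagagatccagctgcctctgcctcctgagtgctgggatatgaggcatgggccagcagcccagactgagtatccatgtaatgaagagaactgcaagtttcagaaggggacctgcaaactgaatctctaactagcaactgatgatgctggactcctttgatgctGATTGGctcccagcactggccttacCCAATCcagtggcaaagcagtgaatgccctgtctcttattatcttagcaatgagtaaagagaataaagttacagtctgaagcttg
H2-DMb1 promoter, chr17:34152941-34153240, plus strand: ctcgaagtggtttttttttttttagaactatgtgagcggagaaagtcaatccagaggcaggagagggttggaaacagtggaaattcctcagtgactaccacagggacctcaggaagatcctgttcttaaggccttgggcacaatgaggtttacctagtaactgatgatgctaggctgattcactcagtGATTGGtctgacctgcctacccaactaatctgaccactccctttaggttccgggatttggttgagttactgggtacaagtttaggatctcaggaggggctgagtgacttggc
The Y box lies 49 bases before the start site in H2-Aa, 60 in H2-Eb1, where the reverse form follows at 35, and 62 in H2-DMb1. Of 10 class II pathway genes looked up, 7 had a window in the RefSeq table and all 7 held the motif on either strand, against 16.1% of all 32851 windows of 300 bases. A match describes the sequence only and shows no binding.

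The libraries differed in depth and in composition. Median UMIs per passing cell were 13785 in Gli1 KO JAK2V617F, 17277 in Gli1 KO JAK2WT and 13149.5 in WT JAK2V617F, and 4187 in WT JAK2WT. The selected cells had medians of 14610, 14245, 11510.5 and 7179.5 UMIs in the same order. Between pairs of libraries 52 passing barcodes were shared, none of them among the selected cells. Xist alone was detected in 0 of 45, 0 of 54, 5 of 6 and 221 of 232 selected cells, and Y-linked genes alone in 33, 47, 0 and 0, again in that order, so Gli1 genotype and sex of the cells cannot be told apart. Gli1 itself had 0 UMIs in the selected cells of all 4 libraries, the WT ones included, so its transcript does not check the genotype here. GFP transcripts were found in 0 of 45, 0 of 54, 0 of 6 and 0 of 232 selected cells, which by the limit of 3 counts allows shares of up to 6.67%, 5.56%, 50% and 1.29%. Among all other passing cells GFP was detected in 1.02%, 0.177%, 2.73% and 0.580%, so at this depth a shortage of transduced dendritic cells was not detectable.

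Selected cells were rare in every library. They made up 45 of 6490 cells in Gli1 KO JAK2V617F (0.693%, 95% exact binomial interval 0.506 to 0.927%), 54 of 3999 in Gli1 KO JAK2WT (1.35%, 1.02 to 1.76%), 6 of 3602 in WT JAK2V617F (0.167%, 0.0612 to 0.362%) and 232 of 7987 in WT JAK2WT (2.90%, 2.55 to 3.30%). The WT pair lay farthest apart, and the 2 Gli1 KO libraries fell between them. These intervals cover counting error only and say nothing of differences between mice.

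**Figure D1:**
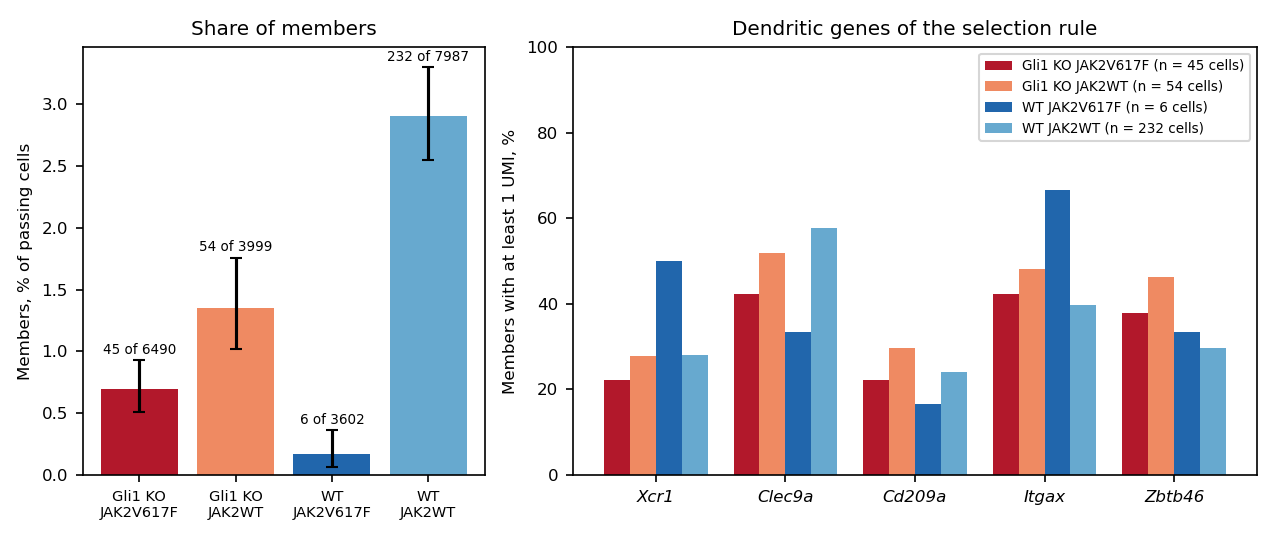
Left, selected cells as a percentage of passing cells in each library, with 95% exact binomial intervals for counting error. Right, the percentage of selected cells with at least 1 UMI of each dendritic gene of the rule. WT JAK2WT stands highest on the left at 2.90%, and Clec9a is the most often detected gene on the right in Gli1 KO JAK2WT and WT JAK2WT.

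The share in JAK2V617F marrow was 0.0573 times that of JAK2WT marrow among WT donors (95% counting interval 0.0255 to 0.129) and 0.513 times among Gli1 KO donors (0.346 to 0.761). Loss of Gli1 went with opposite directions: the Gli1 KO share was 4.16 times the WT share with JAK2V617F (1.78 to 9.75) and 0.465 times with JAK2WT (0.347 to 0.624). With 1 pool per group none of these ratios could be tested, and the difference between them was not tested. Taken among cells with at least 5 class II UMIs, the ratio of JAK2V617F to JAK2WT was 0.883 in Gli1 KO and 0.182 in WT, and the Gli1 KO to WT ratio was 1.86 with JAK2V617F and 0.384 with JAK2WT. Cells thinned to 2000 UMIs gave shares of 0.334%, 0.586%, 0.0894% and 2.03% in the library order above, and there the Gli1 KO to WT ratio with JAK2WT was 0.288.

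Which of the dendritic genes was seen varied from cell to cell. Xcr1 or Clec9a without Cd209a was detected in 20, 25, 3 and 123 selected cells of Gli1 KO JAK2V617F, Gli1 KO JAK2WT, WT JAK2V617F and WT JAK2WT. Cd209a without Xcr1 or Clec9a was detected in 9, 11, 1 and 30, both kinds in 1, 5, 0 and 26, and Itgax or Zbtb46 alone in 15, 13, 2 and 53. Clec9a by itself was the commonest pattern, in 51 of the 337 cells, followed by Zbtb46 alone in 39 and Itgax alone in 36. Xcr1 encodes a chemokine receptor and Clec9a a receptor for dead cells, Cd209a a lectin, Itgax the integrin CD11c and Zbtb46 a transcription factor of the conventional dendritic lineage.

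Cells near the class II threshold differed from the rest of the selection. The 13, 15, 2 and 32 selected cells with 5 to 9 class II UMIs had Cd74 at 470, 503, 0 and 2026 CPM, a gene's UMIs over all UMIs of the same cells on the usual scale. Cd74 is the class II invariant chain and was no part of the rule. Selected cells with at least 10 class II UMIs had 19140, 13609, 29957 and 12426 CPM, and cells just outside the threshold, with 1 to 4, had 45.0, 40.6, 2.29 and 179 CPM. A single UMI of the 5 dendritic genes carried 15, 16, 2 and 78 of the cells into the selection. The selection held cells with little class II beside cells rich in it, as the plot of class II per cell shows. The 20, 21, 2 and 64 selected cells with under 20 class II UMIs also had little of 2 cDC1 genes outside the rule. Naaa stood at 55.8, 7.70, 0 and 67.9 CPM in them, against 893, 658, 1916 and 632 CPM in the rest. Batf3 stood at 11.5, 28.2, 0 and 119 CPM, against 268, 163, 405 and 224 CPM. The name conventional dendritic cells is that of the rule and is uncertain for these cells.

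**Figure D2:**
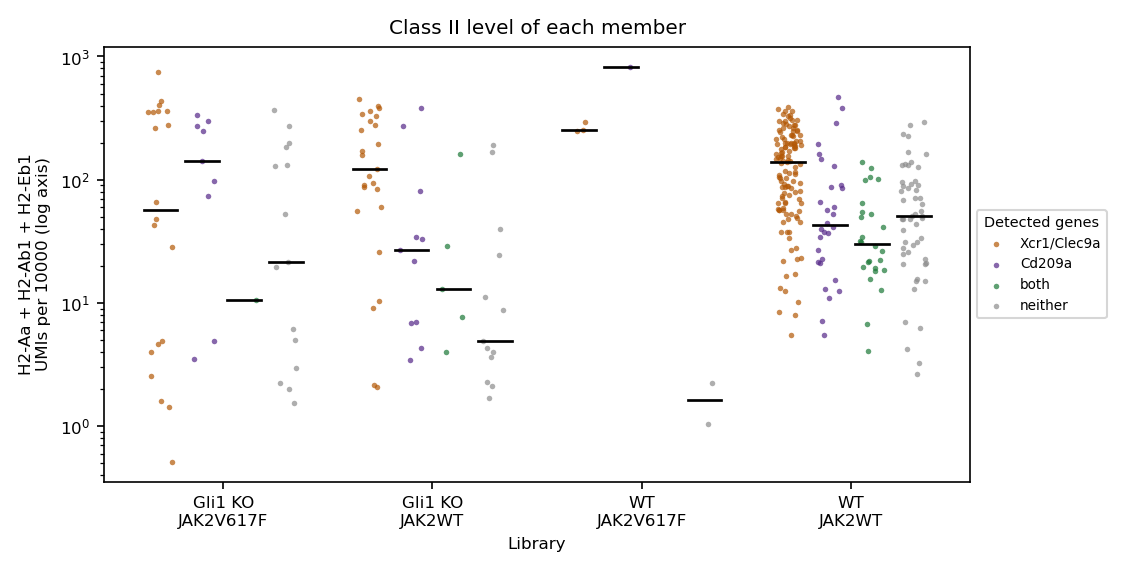
Each point is 1 selected cell, placed by its library and by which of Xcr1 or Clec9a and Cd209a it held, with H2-Aa, H2-Ab1 and H2-Eb1 UMIs per 10000 UMIs on a log axis and bars at the medians. Library medians over all selected cells are 66.2, 37.3, 250.6 and 81.3 from left to right, and single cells range between 0.513 and 745 in Gli1 KO JAK2V617F.

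Markers outside the rule are described here beside the other passing cells. Cst3, a protease inhibitor that dendritic cells make in quantity, stood at 7131, 11974, 6618 and 15100 CPM in the selected cells of Gli1 KO JAK2V617F, Gli1 KO JAK2WT, WT JAK2V617F and WT JAK2WT, against 645, 926, 453 and 1410 CPM in the other passing cells. Flt3, the receptor for the main dendritic growth factor, stood at 97.9, 112, 81.0 and 118 CPM, against 28.2, 44.0, 10.5 and 39.6 CPM in the others. Batf3, which cDC1 need, stood at 111, 107, 99.0 and 201 CPM, against 2.81, 2.21, 1.60 and 7.32 CPM. All 3 genes were higher in the selected cells of every library. Irf4 was barely seen, at 5.90, 3.23, 0 and 5.72 CPM in selected cells.

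Macrophage, B lineage, granulocyte-monocyte progenitor and neutrophil genes summed to less in selected cells than in the other passing cells of every library. Plasmacytoid and monocyte genes did so in some libraries only. The summed level of 16 plasmacytoid dendritic genes was 207 to 734 CPM in selected cells, against 4984 to 11065 CPM in cells with at least 2 UMIs of Siglech. By library it was 665, 719, 207 and 734 CPM, against 459, 647, 306 and 1590 CPM in the other passing cells. Of 15 macrophage genes the sum was 18.0 to 79.0 CPM, with Cd5l, C1qc and Mertk at 0 in all 4 libraries, and the sum of 16 B lineage genes was 349, 1661, 63.0 and 1202 CPM in selected cells, against 7709, 86145, 3828 and 28369 CPM in the other passing cells. The B cell gene Pax5 was at 0 in all but WT JAK2WT, where it reached 3.12 CPM. Because the rule left out cells with Siglech, C1qa or Cd79a, these plasmacytoid, macrophage and B lineage sums are set in part by the selection. The contrast with cells chosen by Siglech is set from both sides, so these sums are no check of the label. Monocyte genes were present, with a sum over 18 genes of 747 to 3385 CPM in selected cells, against 1442 to 2236 CPM in the other passing cells, and was the higher in selected cells of all libraries but WT JAK2V617F. The 9 progenitor genes summed to 3648, 3708, 7248 and 3678 CPM in selected cells, against 11827, 15599, 11954 and 13400 CPM in the others. The 12 neutrophil genes summed to 2252, 208, 216 and 1205 CPM, against 19346, 1500, 20064 and 8720 CPM. Mpo, a neutrophil granule enzyme, had a UMI in 84.4%, 68.5%, 66.7% and 94.8% of selected cells and in 78.7%, 75.5%, 71.4% and 91.2% of cells with at least 2 UMIs of Cd3e, taken as T cells, at median depths of 4725, 5008, 2939 and 4799 UMIs in the T cells. S100a8, a neutrophil gene, had a UMI in 73.3%, 46.3%, 66.7% and 72.0% of selected cells, against 80.3%, 53.1%, 28.6% and 66.7% of the T cells. Cd74 had a UMI in 95.6%, 96.3%, 66.7% and 99.6% of selected cells, against 29.5%, 8.16%, 0% and 32.1% of those T cells. At least 5 class II UMIs, the first part of the rule, were met by 4.92%, 0%, 0% and 1.73% of the T cells.

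**Figure D3:**
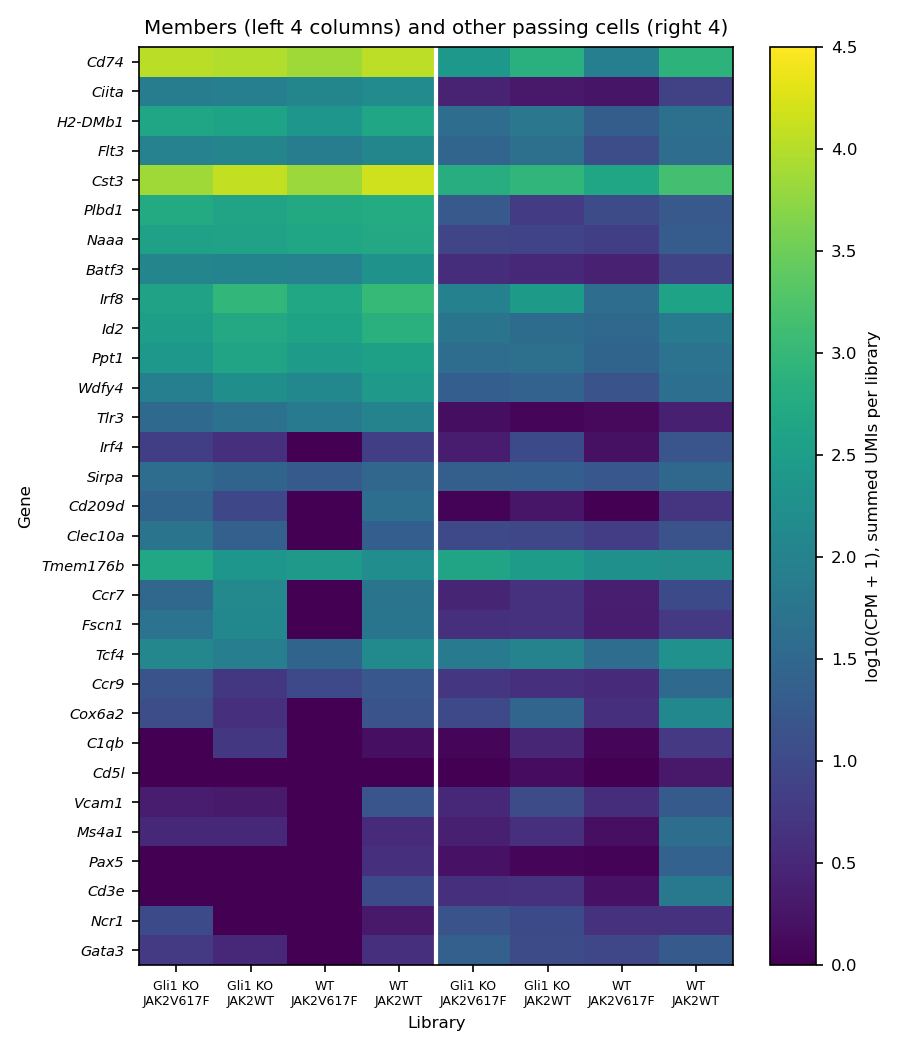
Colour gives log10(CPM + 1) from UMIs summed per library, for selected cells in the left 4 columns and other passing cells in the right 4. Cd74, Cst3, Plbd1, Naaa and Batf3 are brighter on the left in every library, and macrophage, B and T cell genes at the bottom are mostly dark there.

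The 20 genes that led the selected cells over all other passing cells, by the smallest of the 4 log2 ratios, give a description of what the rule gathered. Plbd1, a lysosomal lipase-like protein, came first with log2 ratios of 4.44, 4.86, 4.77 and 4.49 in the 4 libraries. Naaa, a lysosomal amidase, followed with 4.45, 4.54, 4.91 and 4.14, and then Cd74 with 5.36, 3.71, 6.24 and 3.81. The transcription factors Batf3 and Id2, the class II regulator Ciita, the peptide loader H2-DMb1 and March1, which removes class II from the surface, were among the others. So were the lysosomal genes Ppt1 and Psap, the pore former Mpeg1 and the trafficking GTPase Rab7b. The lowest of the 20 by this measure was Lsp1, with 2.15 in WT JAK2WT. A list of 26 lysosome and phagocytosis genes summed to 6605, 6720, 3764 and 7447 CPM in selected cells. It summed to 8296, 7123, 7693 and 8039 CPM in cells with at least 2 UMIs of Siglech, which was more in every library. These Siglech cells numbered 20, 63, 1 and 388, so the value of WT JAK2V617F is that of 1 cell.

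Cells with Xcr1 or Clec9a and cells with Cd209a differed in many genes that had no part in the selection. UMIs were summed over each kind of cell in each of the 3 libraries with at least 5 of both, and tested with edgeR's quasi-likelihood test with library as a block. At an adjusted p under 0.05, 87 of 4657 genes were higher in Xcr1/Clec9a cells (1.87%) and 125 were lower, that is higher in Cd209a cells (2.68%). Without any adjustment 720 genes had p under 0.05. The test has 3 pairs of sums, and the 9, 11 and 30 Cd209a cells are its smaller side. The Xcr1/Clec9a side was mixed too. In Gli1 KO JAK2V617F 8 of its 20 cells had under 20 class II UMIs and held 283586 of 464132 UMIs, 116941 of them in 1 cell. Naaa stood at 84.6 CPM and Irf8 at 180 CPM in these 8, against 1490 and 1351 CPM in the 12 others.

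Known cDC1 genes were higher in Xcr1/Clec9a cells. Of 18 listed, 14 were tested and all 14 were higher in Xcr1/Clec9a cells, with a median log2 fold of 2.51, against 0.01 over all genes tested. Naaa stood at 631, 725 and 839 CPM in Xcr1/Clec9a cells of Gli1 KO JAK2V617F, Gli1 KO JAK2WT and WT JAK2WT, against 83.9, 43.9 and 84.6 CPM in Cd209a cells. Its groups did not overlap, and its log2 fold was 3.40 ± 0.28 (SE, edgeR adjusted p = 2.89e-08). Ppt1, a lysosomal thioesterase, stood at 422, 761 and 600 CPM, against 63.0, 65.8 and 44.5 CPM (log2 fold 3.42 ± 0.29, edgeR adjusted p = 3.47e-08). Wdfy4, which cross-presentation needs, stood at 121, 286 and 394 CPM, against 28.0, 87.7 and 75.7 CPM (log2 fold 2.14 ± 0.29, edgeR adjusted p = 2.67e-05). Tlr3, the sensor of double-stranded RNA, had 58.2, 79.4 and 165 CPM, against 0, 21.9 and 31.2 CPM (edgeR adjusted p = 0.000868). Irf8, the factor cDC1 depend on, stood at 636, 1305 and 1346 CPM in Xcr1/Clec9a cells, against 49.0, 987 and 472 CPM in Cd209a cells (log2 fold 1.55 ± 0.31, edgeR adjusted p = 0.00354), with the narrowest gap in Gli1 KO JAK2WT. Id2, a partner factor in cDC1, stood at 455, 817 and 1027 CPM, against 6.99, 373 and 142 CPM (edgeR adjusted p = 6.94e-05).

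Known cDC2 genes were lower in Xcr1/Clec9a cells. Of 23 listed, 12 were tested, 11 were lower in Xcr1/Clec9a cells and 1 did not pass, with a median log2 fold of -2.32. Clec10a, a lectin of cDC2, stood at 6.46, 2.09 and 1.89 CPM in Xcr1/Clec9a cells, against 280, 65.8 and 107 CPM in Cd209a cells (log2 fold -5.36 ± 0.47, edgeR adjusted p = 5.23e-08). Sirpa, the surface protein used to sort cDC2, stood at 25.9, 10.5 and 10.4 CPM, against 83.9, 80.4 and 75.7 CPM (log2 fold -2.41 ± 0.43, edgeR adjusted p = 0.00105). S100a4, a calcium-binding protein, stood at 235, 98.3 and 115 CPM, against 993, 899 and 1086 CPM (edgeR adjusted p = 5.23e-08). Cd209d was seen in Cd209a cells at 161, 51.2 and 280 CPM, against 0, 2.09 and 0 CPM in Xcr1/Clec9a cells. As a close copy of Cd209a, a gene that defined these cells, Cd209d is uncertain, since reads of such copies can be exchanged.

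Among the 12 genes with the largest folds toward Xcr1/Clec9a cells were also Bcl2a1b, a survival gene with near-identical copies and so uncertain, the nuclease Dnase1l3, the adhesion protein Cadm1, the tetraspanin Cd81, the costimulator Cd86 and the receptor P2ry14, with Snx22, Agpat3, Gcsam and Rab7b. The 12 toward Cd209a cells included the chemokines Ccl9 and Ccl6, the oxidase subunit Cybb, fibronectin (Fn1), Clec4a2, Mcemp1, Ifitm6 and Wfdc17. Ccl9 stood at 34.5, 14.6 and 19.9 CPM in Xcr1/Clec9a cells, against 357, 219 and 240 CPM in Cd209a cells (log2 fold -3.54 ± 0.29, edgeR adjusted p = 2.89e-08). Cybb stood at 51.7, 20.9 and 8.51 CPM, against 399, 234 and 245 CPM (log2 fold -3.63 ± 0.33, edgeR adjusted p = 6.69e-08). All 24 kept their direction in each of the 3 libraries, but the same libraries picked them, so this is no separate check. S100a8 and S100a9 were also in that list, but rested on 2 cells. Without the 2 cells with at least 100 UMIs of these neutrophil genes, S100a8 had a log2 fold of 0.26 (edgeR adjusted p = 0.784) and S100a9 of -0.51 (edgeR adjusted p = 0.422).

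Other lists split as follows, to be read against 1.87% higher and 2.68% lower over all genes. Class I and cross-presentation genes had 6 of 19 tested higher in Xcr1/Clec9a cells and none lower, among them the peptide transporter Tap2 at 131, 178 and 122 CPM, against 28.0, 58.5 and 35.6 CPM in Cd209a cells (edgeR adjusted p = 0.000868). Class II pathway genes had 1 of 13 higher, H2-Ob, and the median log2 fold of the list was 0.03. Costimulation genes had 3 of 5 higher, namely Cd86, Havcr2 and Btla. Chemokine genes had 4 of 6 lower, namely Ccl9, Ccl6, Cx3cr1 and Ccr2. Of 20 dendritic transcription factors, Id2, Mycl, Irf8 and Batf3 were higher and Zeb2, Klf4 and Tcf4 lower. Lysosomal genes had 2 of 22 higher and 6 lower. Of 29 cell cycle genes 2 were lower, Ube2c and Cenpf, and of 12 glycolysis genes none passed.

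Monocyte genes went with the Cd209a cells. Of 9 tested, 7 were lower in Xcr1/Clec9a cells, among them Lyz2, Fn1 and Ccr2. The sum of the 18 listed genes was 2689, 1503 and 1621 CPM in Xcr1/Clec9a cells of the 3 libraries, against 8408, 5242 and 6169 CPM in Cd209a cells, and its part in the cDC2 result was not tested. Plasmacytoid genes had 3 of 5 lower (Smim5, Tcf4 and Bst2), and neither of 2 B lineage genes passed.

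Without WT JAK2WT, 10 genes were higher and 28 lower, with 4 cDC1 genes higher and 7 cDC2 genes lower, and 10 of the 24 named genes no longer passed. With DESeq2's Wald test 21 were higher and 49 lower, with 7 cDC1 genes and 9 cDC2 genes, and 7 of the 24 named genes no longer passed. Irf8 and Id2 were not called there (DESeq2 adjusted p = 0.452 and 0.132) nor without WT JAK2WT (edgeR adjusted p = 0.205 and 0.0994). With DESeq2 the transcription factors had 0 higher and 1 lower, costimulation 0, plasmacytoid genes 0, class I genes 2, chemokines 3, monocyte genes 5 and lysosomal genes 1 higher and 2 lower. Without WT JAK2WT these lists had 0 and 0, 0, 1, 0, 3, 4, and 0 higher and 1 lower.

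**Figure D4:**
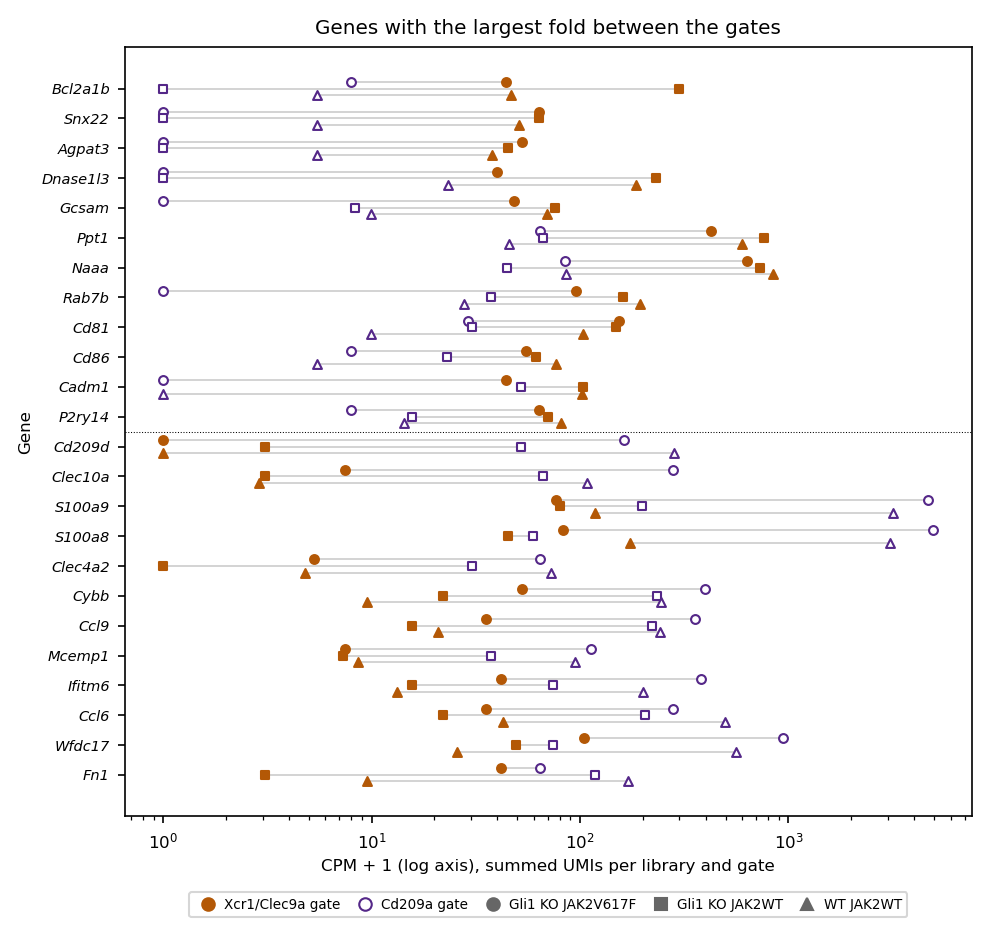
Points give CPM + 1 on a log axis, from UMIs summed over Xcr1/Clec9a cells (filled) and Cd209a cells (open) of 3 libraries (shapes), for the 12 genes with the largest fold in each direction. Above the dotted line filled points lie to the right in all 3 libraries, and below it open points do. The genes were picked by their folds in these libraries, which largely sets this pattern.

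A set of 24 selected cells held Ccr7, the receptor of migrating dendritic cells: 5 of 45 in Gli1 KO JAK2V617F, 8 of 54 in Gli1 KO JAK2WT, 0 of 6 in WT JAK2V617F and 11 of 232 in WT JAK2WT. It was singled out after values were seen and is described without a test. In T cells marked by Cd3e, which can use Ccr7 themselves, the gene was found in 4 of 61, 4 of 49, 2 of 7 and 95 of 811. Of the 24 cells, 17 had neither Xcr1, Clec9a nor Cd209a, and 17 had Zbtb46. Summed over libraries, Fscn1, an actin bundler of mature dendritic cells, stood at 839 CPM in Ccr7 cells, against 5.97 CPM in the other 313. Ccl22, a chemokine that draws regulatory T cells, was held by 7 of the 24, and its level by library was 16.5, 1144 and 131 CPM in Ccr7 cells of Gli1 KO JAK2V617F, Gli1 KO JAK2WT and WT JAK2WT, against 0, 7.20 and 0.560 CPM in the others. Relb, an NF-kappaB subunit, stood at 330 CPM, against 17.6 CPM, and Cd274, which encodes PD-L1, at 109 CPM, against 4.83 CPM. Cd209a stood at 6.79 CPM, against 107 CPM, and was lower in the Ccr7 cells of each of the 3 libraries that held them. Xcr1 had no common direction: Ccr7 cells had 99.2, 187 and 0 CPM in Gli1 KO JAK2V617F, Gli1 KO JAK2WT and WT JAK2WT, against 68.6, 164 and 167 CPM in the cells without Ccr7.

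Expression was compared between libraries only where both had at least 20 selected cells, which left 2 comparisons, both with Gli1 KO JAK2WT as a member. A gene counted as measured with at least 50 CPM and 10 UMIs in 1 of the 2 libraries, and 10 CPM were added before the log2 ratio. With JAK2V617F over JAK2WT in Gli1 KO, 33 of 3311 measured genes lay 2-fold or more above (0.997%) and 47 lay 2-fold or more below (1.42%), with a median log2 ratio of 0.07. With Gli1 KO over WT under JAK2WT, 39 of 3259 lay 2-fold or more above (1.20%) and 29 below (0.890%), with a median of 0.01. In bulk sums like these, fewer cells of a kind and less RNA per cell cannot be told apart.

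Genes of the cDC2 list lay above the median of all genes for JAK2V617F over JAK2WT in Gli1 KO marrow, while those of the cDC1 list lay below it over all selected cells and near it among those richer in class II. Over 10 measured of 18 listed cDC1 genes the median log2 ratio was -0.72 with only Irf8 past 2-fold. Over 8 measured of 23 listed cDC2 genes it was 0.85 with Cd7 and Tmem176b past 2-fold. A gene could enter through a high level in 1 library only. Among cells with at least 20 class II UMIs the cDC1 median was 0.01 and the cDC2 median 1.5. Irf8, which cDC1 depend on, stood at 388 CPM (95% Poisson interval 347 to 432) in Gli1 KO JAK2V617F, against 942 CPM (881 to 1007) in Gli1 KO JAK2WT, while WT JAK2V617F and WT JAK2WT had 504 and 1025 CPM. Split at 20 class II UMIs, Irf8 was lower in Gli1 KO JAK2V617F than in Gli1 KO JAK2WT in both parts. The 20 cells of Gli1 KO JAK2V617F with under 20 class II UMIs held 519555 of its 847654 UMIs, 116941 of them in 1 cell, and had Irf8 at 139 CPM, against 354 CPM in the 21 such cells of Gli1 KO JAK2WT. Among cells with at least 20 class II UMIs Irf8 stood at 783 CPM in 25 cells of Gli1 KO JAK2V617F, against 1368 CPM in 33 cells of Gli1 KO JAK2WT. In the Xcr1/Clec9a cells among these it stood at 1351 CPM, against 1477 CPM. In WT JAK2V617F 2 of the 6 cells, with under 20 class II UMIs, held 83921 of 111060 UMIs, so no direction is read from that library. Over all selected cells, Xcr1/Clec9a cells were 20 of 45 with JAK2V617F, against 25 of 54 with JAK2WT in Gli1 KO, and Cd209a cells 9 of 45, against 11 of 54. Among cells with at least 20 class II UMIs, Xcr1/Clec9a cells were 12 of 25 with JAK2V617F, against 21 of 33 with JAK2WT. They held 180546 of 328099 UMIs there, against 391394 of 539602. Whether the make-up of these cells differed beyond counting error was not tested, nor was its part in the Irf8 gap.

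Cxcl9, Ccl22 and Il12b stood highest in Gli1 KO JAK2WT, each in few cells. Cxcl9, a chemokine that draws activated T cells, stood at 2.36 CPM in Gli1 KO JAK2V617F, 231 in Gli1 KO JAK2WT, 9.0 in WT JAK2V617F and 41.6 in WT JAK2WT, and was detected in 2, 9, 1 and 16 cells. Ccl22 stood at 1.18, 125, 0 and 9.87 CPM, with 64 of the 116 UMIs of Gli1 KO JAK2WT in 1 cell. Il12b, a subunit of the cytokine IL-12, stood at 7.08, 96.8, 0 and 4.16 CPM, with 54 of its 90 UMIs in Gli1 KO JAK2WT in 1 cell. They were lower in the comparison for JAK2V617F and higher in that for Gli1 loss, through the shared library. Of 24 listed maturation genes 11 were measured in each comparison. Ccl22 and Il12b were among them only through Gli1 KO JAK2WT, where they are high, so the filter set the medians in part. The median log2 ratio of the 11 was -0.81 for JAK2V617F over JAK2WT in Gli1 KO and 0.86 for Gli1 KO over WT with JAK2WT. The first was -0.33 with each cell weighted equally and 0.08 among cells with at least 20 class II UMIs, and the second was 0.33 without the richest cell of each gene. Cells with Ccr7 were 11.1% and 14.8% of the selection in the Gli1 KO libraries with JAK2V617F and JAK2WT, and 4.74% in WT JAK2WT. These shares were not thinned, and the median depth of the selected cells was 14610, 14245 and 7179.5 UMIs in the same order.

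Several large ratios came from single cells. With JAK2V617F in Gli1 KO, Pf4, a platelet chemokine, had 328 UMIs, 280 of them in 1 cell, for 387 CPM, against 3.23 CPM with JAK2WT. Retnlg, S100a8 and S100a9 had 243 of 247, 702 of 764 and 654 of 732 UMIs in 1 cell each, and Csn2, a milk protein gene, had all 56 in 1. Without the cell richest in each gene the log2 ratio of S100a9 was 0.07 in place of 2.99, that of Retnlg 0.56 in place of 4.77 and that of S100a8 0.65 in place of 3.94. Lcn2, a neutrophil granule gene, had 60 of 71 UMIs in 1 cell and was at 0 with JAK2WT, where Apol7c had 44 of 47 in 1. Nabp1, a single-strand DNA binding protein, stood at 11.8 CPM with JAK2V617F, against 73.2 CPM with JAK2WT, where 29 of 68 UMIs were in 1 cell. Without the richest cell of each gene, 20 of the 33 higher and 41 of the 47 lower genes remained past 2-fold. These counts follow the genes called with all cells and do not ask again for the measured level. For Gli1 KO over WT with JAK2WT, 25 of 39 and 26 of 29 remained. In the comparison of Gli1 KO with WT under JAK2WT the lower genes Retnlg and Cxcl12, a stromal chemokine, had 198 of 201 and 102 of 105 UMIs of WT JAK2WT in 1 cell.

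Some differences were spread over many cells. Ifitm1, an interferon-inducible membrane protein, stood at 849 CPM in 37 of 45 cells of Gli1 KO JAK2V617F, against 162 CPM in 19 of 54 cells of Gli1 KO JAK2WT, and at 39.5 CPM in 28 of 232 cells of WT JAK2WT. Its level in the other passing cells was 1018, 210 and 72.8 CPM in the same order, so it moved in the rest of the marrow too. The heat shock gene Hspa1a stood at 7.08 CPM in 5 of 45 cells, against 172 CPM in 20 of 54 cells, with 2.29 and 37.7 CPM in the other passing cells. Its neighbour in function Hspa1b stood at 11.8 CPM, against 116 CPM. Jchain, the immunoglobulin joining chain, stood at 10.6 CPM, against 136 CPM. It had a UMI in 17.8% and 88.9% of those selected cells and in 13.1% and 81.6% of Cd3e T cells of the same 2 libraries, whose median depths were 4725 and 5008 UMIs, so the gap is not read as expression by dendritic cells.

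Tpm3-rs7 was the highest ratio for Gli1 KO over WT with JAK2WT, at 244 CPM in 46 of 54 cells (95% Poisson interval 213 to 278), against 4.68 CPM in 9 of 232 (2.14 to 8.88). Other passing cells had 142 CPM in Gli1 KO and 4.16 CPM in WT, so the gap was not confined to dendritic cells. The gene (chr14:113314608-113316754, mm10) is a copy of Tpm3, and its counts are uncertain. Bcl2l14, a BCL2 family member, stood at 81.8 CPM in 18 of 54 cells, against 11.4 CPM in 18 of 232, with 3.22 and 2.12 CPM in the other passing cells. Tspan3, a tetraspanin, stood at 159 CPM, against 42.6 CPM, with 47.8 and 31.0 CPM in the other passing cells. Adgrl4, an adhesion receptor, stood at 63.5 CPM, against 11.4 CPM, with 75.4 and 37.1 CPM in the other passing cells. Ccnd1, cyclin D1, was lower, at 80.7 CPM in 25 of 54 cells, against 211 CPM in 125 of 232. It was also lower in the other passing cells, at 19.9969 CPM in Gli1 KO, against 62.9 CPM in WT. Ccl5 stood at 131 CPM, against 391 CPM, with 68.1 and 154 CPM in the other passing cells. Sept3, a gene of the cDC1 list, stood at 20.4 CPM, against 70.2 CPM, with 0.0911 and 1.17 CPM in the other passing cells. Hist2h2ac, a histone gene, stood at 20.4 CPM, against 97.7 CPM, with 17.0 and 110 CPM in the other passing cells. Cell depth also differed in this pair, with medians of 14245 and 7179.5 UMIs.

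Most other lists lay near the median of all genes. For JAK2V617F over JAK2WT in Gli1 KO the median log2 ratio was -0.00 over 10 class II pathway genes, -0.17 over 17 class I genes, 0.15 over 9 JAK-STAT target genes and 0.21 over 11 cytokine receptor genes, none of which passed 2-fold. Interferon-stimulated genes had a median of 0.02, with 3 of 10 at least 2-fold higher. Irf7 was among these at 219 CPM, against 24.7 CPM, with 141 of 186 UMIs in 1 cell. For Gli1 KO over WT with JAK2WT the medians were -0.21 over 11 class II genes, 0.02 over 20 class I genes, -0.01 over 9 JAK-STAT targets and -0.19 over 9 interferon genes. Of 10 glycolysis genes none passed 2-fold there, with a median of 0.52. Their list summed to 3746 CPM in Gli1 KO, against 2655 CPM in WT, in selected cells, to 4447 CPM, against 3256 CPM, in the other passing cells, and to 3733 CPM, against 2267 CPM, in cells with Siglech.

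**Figure D5:**
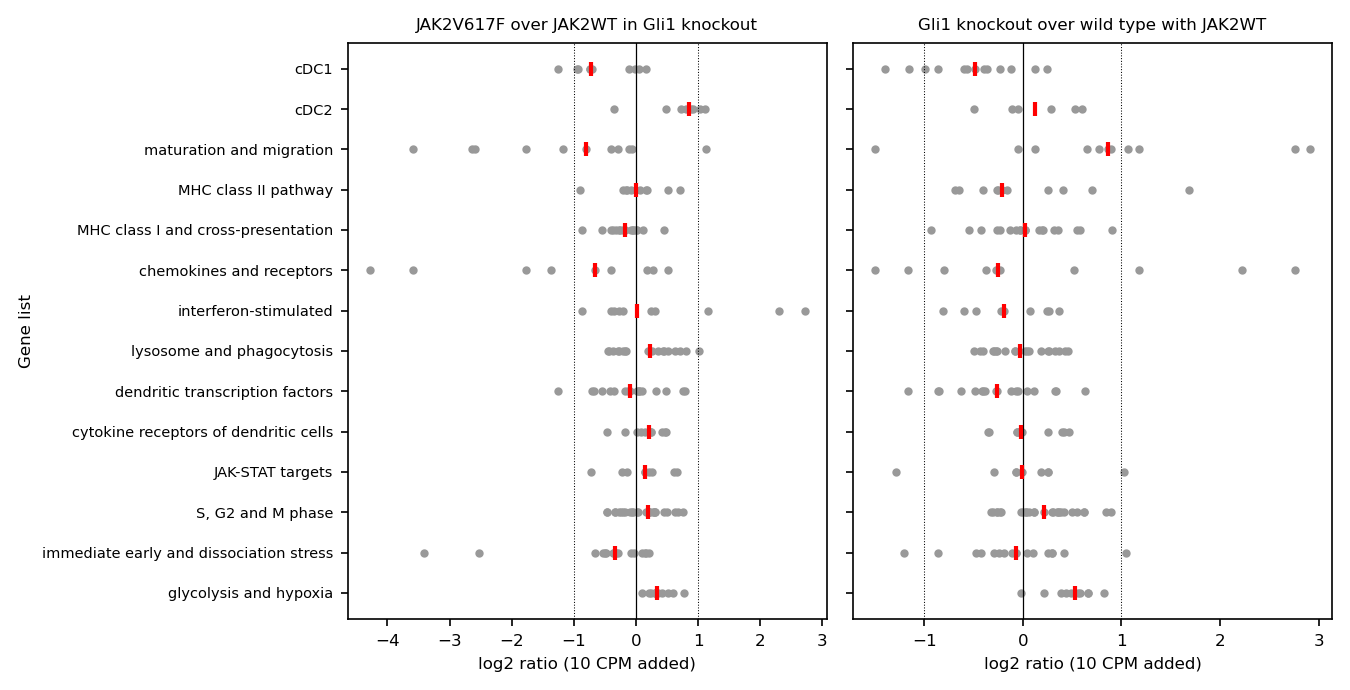
Grey points are measured genes of each list and red marks their median, as log2 ratios of CPM with 10 CPM added, for JAK2V617F over JAK2WT in Gli1 KO (left) and Gli1 KO over WT with JAK2WT (right). Dotted lines mark 2-fold. The cDC1 median lies at -0.72 and the cDC2 median at 0.85 on the left, and the maturation list at 0.86 on the right.

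Genes at the centre of the study's question were as follows in the selected cells. Jak2 stood at 102, 83.9, 54.0 and 110 CPM in Gli1 KO JAK2V617F, Gli1 KO JAK2WT, WT JAK2V617F and WT JAK2WT. Counts do not tell the mutant from the normal transcript. Mif, whose receptor includes CD74, stood at 505, 457, 927 and 359 CPM, against 721, 659, 843 and 688 CPM in the other passing cells. Cd74 was at 10838, 9597, 7320 and 11455 CPM. Ptch1, the hedgehog receptor, was at 9.44, 6.46, 9.0 and 15.1 CPM, and Gli2 was at 0 except for 0.520 CPM in WT JAK2WT.

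After thinning to 2000 UMIs, Mki67 or Top2a, genes of dividing cells, was detected in 40%, 48.1%, 40% and 49.3% of selected cells in the same library order, and in 39.0%, 46.5%, 58.3% and 53.0% of the other passing cells. Unthinned, the shares among selected cells were 68.9%, 64.8%, 33.3% and 70.7%. In WT JAK2V617F the share rests on 5 thinned cells. The part of free RNA in these shares was not tested. Kit, the stem cell factor receptor, was detected in 42.2%, 48.1%, 66.7% and 41.4% of selected cells.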

How the data were processed

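Single-cell 3-prime libraries of bone marrow were made on the 10x Chromium platform, per the labels' protocols. Raw UMI counts per gene and barcode were deposited by the authors as matrices; Cell Ranger 4.0.0, Seurat 4.0.4 and the build mm10 are named in the submitters' processing notes. Total UMIs per library were 59165347 to 114847114.

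Cells were selected by the stated rule. Counts summed per library gave CPM and exact Poisson intervals; shares carry exact binomial intervals. Both cover counting error only. Sums of Xcr1/Clec9a and Cd209a cells (3 libraries, library as a block) were tested with edgeR 4.0.16, quasi-likelihood, Benjamini-Hochberg adjustment; DESeq2 1.42.0 was an alternative, and Scrublet in scanpy 1.11.5 scored doublets, which were kept in the main results. The tests were checked on simulated data. Between libraries genes are named by rule: the 8 highest and 8 lowest ratios among measured genes, and between gates the 12 largest folds each way. The selected cells and the gene lists were chosen with earlier results of these data known. Hashtag libraries were not analysed here. Some genes are not reported here.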

Additional observations from a re-analysis of the deposited data

Results flagged for a closer look

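The share of selected cells in Gli1 KO marrow was 4.16 times that of WT marrow with JAK2V617F and 0.465 times with JAK2WT, so the 2 ratios point in opposite directions. Among cells with at least 5 class II UMIs they were 1.86 and 0.384. Each rests on 1 pool of mice per group, and the difference between them was not tested. The shares of cells with Siglech and of cells with Cd3e ranked the libraries in the same order, so the pattern was not confined to the selected cells. In Gli1 KO JAK2V617F, Gli1 KO JAK2WT, WT JAK2V617F and WT JAK2WT they were 0.308%, 1.58%, 0.0278% and 4.86% for Siglech. For Cd3e they were 0.940%, 1.23%, 0.194% and 10.2%. WT JAK2V617F held 1 Siglech cell and 7 Cd3e cells.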

How the results depend on the processing

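Share ratios kept their direction under every alternative tried. They moved beyond their counting intervals when cells with at least 5 class II UMIs were the denominator (0.182 for JAK2V617F over JAK2WT in WT, 0.883 in Gli1 KO) and when cells were thinned to 2000 UMIs (0.288 for Gli1 KO over WT with JAK2WT).

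For JAK2V617F over JAK2WT in Gli1 KO, the counts of genes at least 2-fold higher and lower were 124 and 152 with at least 20 class II UMIs, 61 and 76 with at least 2 dendritic UMIs, 16 and 17 with 50 CPM added, 111 and 93 with no filter on low values, and 84 and 72 with each cell weighted equally. Without the richest cell of each gene 18 were higher, with the measured genes set anew. This differs from the 20 of 33 given above, which followed the genes called with all cells. For Gli1 KO over WT with JAK2WT they were 13 and 9 with 50 CPM added and 71 and 89 with no filter. Equal weights gave 62 lower, and leaving out the richest cell 19 higher, again with the measured genes set anew. Equal weights and the richest cell were alternatives chosen after seeing the data, as were the class II denominator and the removal of the 2 cells rich in S100a8 and S100a9.

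Between Xcr1/Clec9a and Cd209a cells the higher and lower counts were 21 and 49 with DESeq2's Wald test and 29 and 58 without the library block (no replicate block). With no filter 187 were higher, and with at least 20 class II UMIs 56 were lower. Leaving out each library in turn gave 10 to 112 higher and 28 to 134 lower. The labels give no replicate numbers. No paired analysis was possible beyond the library block because each group is 1 sample.

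For JAK2V617F over JAK2WT in Gli1 KO, the sign of the log2 ratio turned for Pf4 with at least 20 class II UMIs (-0.64), for S100a9 with the highest Scrublet scores removed (-0.079) and without the 2 S100-rich cells (-0.086), and for the median of the cytokine list, -1.24 over 2 measured genes, with no filter (0.073) and without the richest cell (0.11). Between the gates S100a8 turned without the 2 S100-rich cells (0.26). The cause was not tested, except that these S100 values follow from the cells left out. Of 2 selected cells rich in S100a8 and S100a9, 1 was called a doublet.

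WT JAK2V617F held 6 selected cells, too few for any comparison of expression, and intervals there are wide.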

Other observations

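Cells with at least 5 class II UMIs, none of the 5 dendritic genes and none of the 4 excluded genes numbered 270 in Gli1 KO JAK2V617F, 208 in Gli1 KO JAK2WT, 77 in WT JAK2V617F and 164 in WT JAK2WT, with median depths of 17959, 19141, 14683 and 5310 UMIs. Their summed level of pan-dendritic genes was 1183, 1436, 1350 and 5054 CPM, against 9253, 14136, 8140 and 17565 CPM in the selected cells of the same libraries. Their 18 cDC1 genes summed to 335, 453, 442 and 1572 CPM, against 2228, 3386, 2818 and 4248 CPM in the selected cells. Both sums were highest in WT JAK2WT, the library with the fewest UMIs per cell.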
